A study of Zea mays with 22 samples.

Results

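A maize leaf that was kept from UV-B by a PE cover while the rest of its plant was irradiated was set against a PE-covered leaf of a plant that received no UV-B. The comparison rests on 1 spotted array with 2 channels, out of 22 arrays in the study and 14 of its print design, and was chosen by its label alone. Channel 1 held RNA of PE-covered adult leaf of UV-B exposed plants and channel 2 held RNA of PE-covered adult leaf of control plants, so both groups carried the same cover. The other arrays of that design set UV-B against control in adult leaf, seedling leaf, tassel, immature ear and root after 8 h, and leaf in a CA bag against leaf in a PE bag on exposed plants. Polyester film absorbs UV-B and cellulose acetate film passes it, while the labels give PE and CA only. Neither the hours of exposure of the covered-leaf array nor the plants' age, nor whether leaves were pooled, is in the labels used here.

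UV-B is the short-wave part of sunlight that reaches plants. In leaves struck by it, it damages DNA and photosystems, and it acts as a signal that a photoreceptor passes to defence, flavonoid and repair genes. A tissue that receives no UV-B itself can still change its transcripts when other organs of the plant are irradiated, which is called a systemic response, and jasmonate, abscisic acid and reactive oxygen are among the signals known to travel or to be made in such responses. The covered leaf addresses that question, since both leaves compared had been under the cover.

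The array had a value at 15350 of its 16928 spots (90.7%), the array median was set to 0, and every 3 neighbouring spots were averaged as 1 probe. Of 5640 probes, 5120 had at least 2 spots with a value (5039 with all 3) and were used. The SD over the spots of a probe had a median of 0.0443, which covers spotting and scanning within the array and says nothing of plants, since there was no second array. No test and no p-value are therefore given, "higher" and "lower" describe these 2 RNA samples alone, and a probe was counted when its mean lay at least 2-fold from the array median (a log2 ratio of 1) or, more loosely, 1.5-fold (0.58). Positive values are read as exposed over control plants, the order of the channels in the labels. The files state no direction, and under the other reading every "higher" and "lower" below exchange. In RNA of whole leaf, fewer cells of a type and less RNA per cell cannot be told apart.

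Among genes with a name, the covered leaves of exposed plants had more transcript of the chitinase chn1, the phosphatase PP1, the aquaporin pip1-2 and opr6 of the jasmonate-related reductase family. They had less of the light-harvesting gene lhcb5, the Rubisco small subunit rbcS, the Rubisco activase rca1 and psbs1, which dissipates excess light in photosystem II. Only lhcb5 of these passed 2-fold. Of the higher genes, pip1-2 and opr6 lay in block 6 of the print, which held 32 of the 53 probes at least 2-fold higher. opr6 was at 0.95 with block medians set to 0, and the second PP1 probe, also in block 6, was at 0.67. Between rbcS and psbs1 in value lay cda1 (-0.91), ccp1 (-0.86), a PIP1-1 probe (-0.93) and a phi1 probe (-0.82), genes outside photosynthesis. Another light-harvesting gene, Cab-m7, was above 0 (0.29 and 0.19). Most probes lay close to the array median. Values ran between -1.96 and 2.13 (3.89-fold lower and 4.39-fold higher), and the central 95% of probes lay between -0.82 and 0.78.

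Over all 5120 probes, 53 were at least 2-fold higher (1.04%) and 50 at least 2-fold lower (0.977%). Of the same probes 50.3% were above 0, the share to set beside the sign counts of the lists below. At 1.5-fold the counts were 274 higher (5.35%) and 307 lower (6%), and at 3-fold they were 9 and 6. All spots of a probe lay past 2-fold in 37 of the 53 and in 40 of the 50. Probes of named genes, 321 of the 5120, made up 6 of the 53 higher and 1 of the 50 lower, counts too small to read. Of the 321 probes with a value that carry 1 of 267 named genes (348 probes and 286 genes in all), 14 were at least 1.5-fold higher (4.36%) and 20 at least 1.5-fold lower (6.23%), shares near those over all probes. Counts of list members past 1.5-fold below stand beside these shares and are too small for a reading by list.

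**Figure D1:**
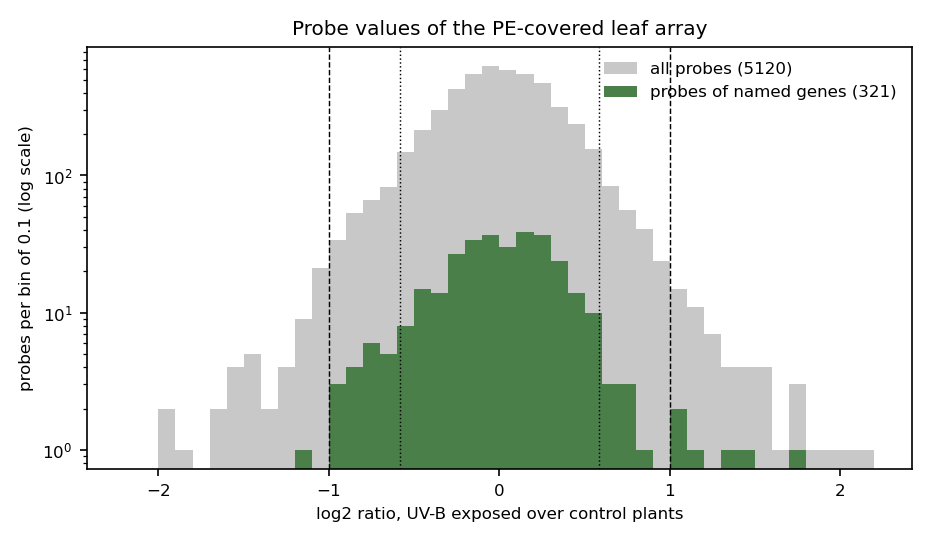
Number of probes (log scale) by log2 ratio of the PE-covered leaf array, in bins of 0.1, for all 5120 probes (grey) and the 321 probes of named genes (green). Dashed lines mark 2-fold and dotted lines 1.5-fold. Both sets centre on 0, and 7 green probes lie outside the dashed lines, 6 of them to the right.

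The higher probes were not spread evenly over the print. In spot order the array falls into 8 blocks, read here as print blocks, and block 6 held 32 of the 53 higher probes (60.4%) and 1 of the 50 lower ones. Its 628 probes had a median of 0.19, against -0.14 to 0.11 in the other blocks, and 5.1% of them were 2-fold higher, against 0.16% to 0.958% elsewhere. With each block's median set to 0, 36 probes were 2-fold higher, 14 of them in block 6, and 52 were lower. Of the 14 named probes at least 1.5-fold higher, 7 sat in block 6, while 2 of the 20 lower ones did and 46 of all 321 named probes (14.3%). The probes of block 6 are marked in the text for that reason. Which part the block has in their values was not tested.

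**Figure D2:**
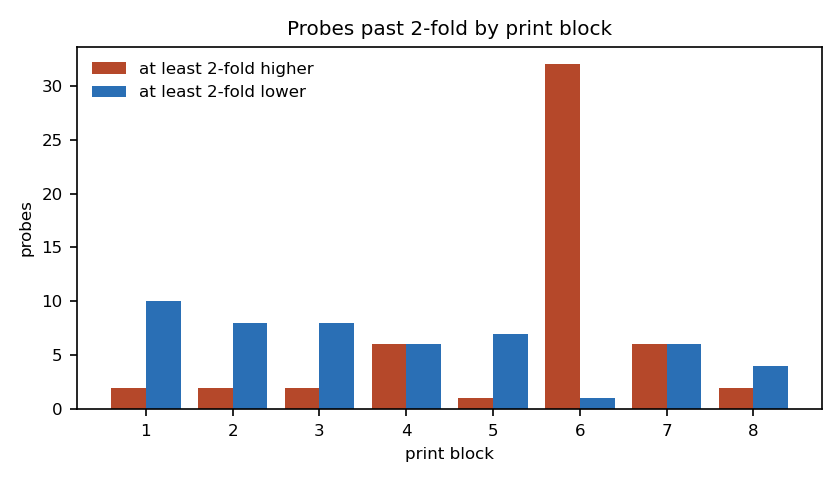
Number of probes at least 2-fold higher (red) and at least 2-fold lower (blue) in each of the 8 print blocks. Block 6 holds 32 of the 53 higher probes, while the lower probes are spread over the blocks with 10 in block 1 and 1 in block 6.

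The thylakoid and light-harvesting genes held the named probe with the lowest value. The gene lhcb5 encodes a minor antenna protein of photosystem II, and its spots read -1.05, -1.09 and -1.19, a mean of -1.11 ± 0.07 (SD over 3 spots) or 2.15-fold lower. psbs1 followed at -0.81, -0.83 and -0.81, a mean of -0.82 (1.76-fold lower). In both genes the spots lay close together and far from the array median. The third member past 1.5-fold was crp1, which in maize chloroplasts is needed to process and translate messages of the cytochrome complex, at -0.61, -0.61 and -0.56 (mean -0.59). Other members ran the opposite way: psaN of photosystem I was at 0.47, the ferredoxin-thioredoxin reductase gene ftr1 at 0.35 and the probes of the light-harvesting gene Cab-m7 at 0.29 and 0.19. The ferredoxin-NADP reductase L-FNRI (-0.49) and pgr5 of cyclic electron flow (-0.42) were below 0 and short of 1.5-fold. Across the 11 probes 3 were 1.5-fold lower and 0 were higher, 7 were negative, and the median of -0.14 became 0.0023 with the deposited values left uncentred. The antenna genes lhcb5 and Cab-m7 thus lay on opposite sides of 0. crp1 was at -0.45 with the deposited values and at -0.51 with plate medians set to 0, both short of 1.5-fold.

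Carbon fixation genes were negative in 8 of 9 probes, some of them close to 0, where 50.3% of all probes were positive. The rbcS probe (block 6) read -0.97, -0.93 and -0.96, a mean of -0.95 ± 0.019 (SD over 3 spots) or 1.93-fold lower, although its block lay above 0. rca1, whose product keeps Rubisco active, read -0.80, -0.83 and -0.89, a mean of -0.84 (1.79-fold lower). These are the enzyme and its activator, and both were below 0 at every spot. PPDK, which regenerates the acceptor of the C4 cycle, was at -0.48 and the phosphoenolpyruvate translocator ppt1 at -0.46. The malic enzyme genes me2 and me4 (-0.02 and -0.03), GAPA (-0.06) and pep7 (-0.08) lay near 0, and the triose phosphate translocator TPT (block 6) was at 0.37, the 1 positive member of 9. The list median was -0.08 with 2 members 1.5-fold lower and 0 higher, and it was 0.07 with the deposited values left uncentred. Rubisco small subunits are encoded by near-identical copies, so the rbcS probe may read more than 1 of them.

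Defence genes lay mostly above 0. Chitinases cleave the chitin of fungal walls, and the chn1 probe (block 1) read 1.48, 1.47 and 1.46, a mean of 1.47 ± 0.0078 (SD over 3 spots) or 2.77-fold higher. Its spots were nearly equal. The hypersensitive-response gene hir1 had probes at 0.56 and, in block 6, 0.33. The cystatins psei2, psei1 and psei3, inhibitors of cysteine proteases, were at 0.41, 0.34 and 0.14, with a second psei1 probe at -0.16, and the beta-glucosidase gene glu1 was at 0.14 and 0.13. pr5, of the thaumatin-like pathogenesis proteins, was at -0.20. Of the 10 probes 8 were positive, with a median of 0.24 (0.14 without block 6 and also with each gene's probes averaged), and chn1 alone passed 1.5-fold.

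Proteases ran both ways. The cysteine protease ccp1 read -0.87, -0.89 and -0.83, a mean of -0.86 (1.82-fold lower), while ccp2 of the same family was at 0.54. lon1, a protease of mitochondria (block 6), was at 0.60 with spots at 0.40, 0.70 and 0.69, and it was short of 1.5-fold with block medians set to 0 (0.40). The vacuolar processing enzyme vpe1 was at 0.40 and the probes of mir3 were at 0.35 and -0.14. Over 6 probes the median was 0.38, with 1 member past 1.5-fold in each direction.

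**Figure D3:**
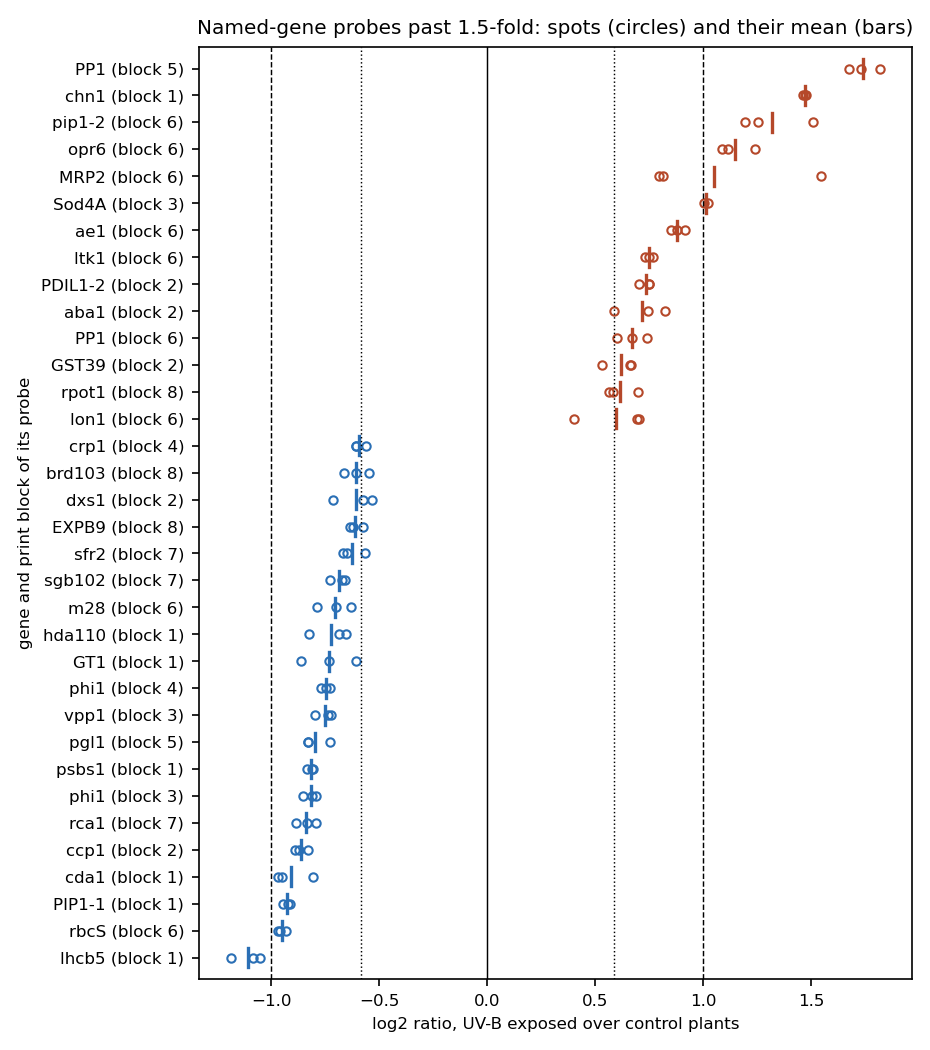
The 34 named probes at least 1.5-fold from the array median, with each spot as a circle and the mean as a bar, on a log2 axis (exposed over control plants). Red probes are higher and blue ones lower, with dashed lines at 2-fold and dotted lines at 1.5-fold. The spots of MRP2 are farthest apart, the first at 1.54 and the others at 0.81 and 0.80, and those of lon1, pip1-2 and GT1 are also spread, with SDs of 0.17, 0.17 and 0.13.

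Hormone and signalling genes, with 24 of the 321 named probes, held the highest named value and 5 of the 14 higher probes. Both probes of PP1 are among the 5, and 5.35% of all probes were 1.5-fold higher. PP1, whose symbols in the gene table (PP1, prh1) are those of a protein phosphatase, read 1.68, 1.73 and 1.82 in block 5, a mean of 1.74 ± 0.071 (SD over 3 spots) or 3.34-fold higher. Its other probe, in block 6, read 0.60, 0.74 and 0.67 (mean 0.67, 1.59-fold). Both probes of the gene were thus above 0 and differed by 1.07 from each other. opr6 belongs to the 12-oxophytodienoate reductases, a family with members that make jasmonate. It read 1.09, 1.11 and 1.24 (block 6), a mean of 1.15 ± 0.08 (SD over 3 spots) or 2.21-fold higher, and was at 0.95 with block medians set to 0.

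Around opr6, the jasmonate and oxylipin enzymes aos1 (0.18) and hpl1 (0.49, block 6) did not pass 1.5-fold. The probe of opr8 had no value. The receptor-like kinase gene ltk1 (block 6) read 0.77, 0.75 and 0.73 (mean 0.75), or 0.55 with block medians set to 0. aba1, also called asr1 after the response of its family to abscisic acid, stress and ripening, read 0.59, 0.74 and 0.82 (mean 0.72). At the other end of the list, the phosphatase PP2C was at -0.49, the brassinosteroid synthesis gene DWF1 at -0.43 and the auxin-binding protein abp4 at -0.41. Of 24 probes 5 were 1.5-fold higher and 0 lower, with 12 on each side of 0 and a median of 0.04, which was -0.03 with block medians set to 0, -0.0079 with each gene's probes averaged and -0.16 without block 6, and 0.18 with the deposited values uncentred. Of the 5 higher probes 3 sat in block 6, and ltk1 and the block 6 probe of PP1 (0.47) were short of 1.5-fold with block medians set to 0.

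Among oxidative stress genes, the cytosolic superoxide dismutase gene Sod4A had 2 spots with a value, at 1.02 and 1.00 (mean 1.01, 2.02-fold higher). The glutathione transferase GST39 read 0.67, 0.53 and 0.66, a mean of 0.62 (1.54-fold higher) that was 0.47 with plate medians set to 0. Other glutathione transferases were near or below 0, with gst31 at 0.02, gst28 at -0.16, gst1 at -0.30 and gst2 at -0.33. The aldehyde dehydrogenase aldh5 (block 6) was at 0.55, ap1, also called Px11, at 0.50 and the catalase cat1 (block 6) at 0.24. In all 2 of 17 probes were 1.5-fold higher and 0 lower, with 11 positive and a median of 0.06.

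Protein folding genes diverged even within 1 gene. PDIL1-2 encodes a disulfide isomerase of the endoplasmic reticulum, and its block 2 probe read 0.75, 0.70 and 0.75, a mean of 0.73 (1.66-fold higher). Its other probes were at 0.11 and -0.25, so the gene averaged 0.20. Of the rest, the derlin gene der4 was at 0.37, the calnexin CNX (block 6) at -0.12, the heat shock genes hsp70-4 at -0.50 and hsp101 at -0.57, just short of 1.5-fold. The 11 probes had a median of -0.12, which was 0.03 with the deposited values uncentred and 0.0025 with block medians set to 0.

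Aquaporins are channels for water and small solutes, and their 15 probes lay evenly about the array median. In the plasma membrane group, pip1-2 (block 6) read 1.51, 1.25 and 1.19, a mean of 1.32 ± 0.17 (SD over 3 spots) or 2.50-fold higher, and 1.12 with block medians set to 0. PIP1-1 had a probe at -0.94, -0.92 and -0.91 (mean -0.93, 1.90-fold lower) and another at 0.17. PIP1-3 likewise had a probe at -0.55 (block 6) and another at 0.01. The relatives PIP2-4 (0.33) and PIP1-5 (-0.06) lay between them. The tonoplast gene TIP1-1 was at -0.30 and -0.32, and TIP2-1 at 0.40 and, in block 6, -0.19. Plasma membrane aquaporins are alike in sequence, and a cDNA spot can bind the RNA of more than 1 of them.

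In cell wall genes 0 of 21 probes were 1.5-fold higher and 2 were lower. The beta-expansin EXPB9, which loosens walls, read -0.62, -0.58 and -0.64 (mean -0.61) on 1 probe and 0.11 on another. pgl1, annotated with polygalacturonase symbols, read -0.83, -0.73 and -0.83 (mean -0.80) on 1 of its 7 probes, and its other 6 ran between -0.37 and 0.36. Cellulose synthases ran between -0.42 (CesA-5) and 0.31 (CesA-6, block 6). The list median was 0.01, and -0.06 with block medians set to 0, -0.10 with each gene's probes averaged and -0.11 without block 6. The phenylpropanoid, flavonoid and lignin genes, the route to UV-absorbing compounds, had 0 of 6 probes past 1.5-fold. Their middle members cncr1 and 4CL were at -0.0072 and -0.04, and PAL1, the entry enzyme, was highest at 0.34. The median of that list, -0.03, was above 0 with deposited values (0.12), block medians (0.04) and the median of spots (0.03).

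Starch and sucrose genes were on the positive side in 13 of 18 probes, where 50.3% of all probes were positive. The starch branching enzyme ae1 read 0.88, 0.85 and 0.91 (block 6), a mean of 0.88 (1.84-fold higher). A second ae1 probe, in block 2, was at 0.25. The sucrose phosphatase gene spp1 (block 6) was at 0.53 and the starch synthase du1 at 0.36. Lowest were glct1 (-0.47) and Agp2 of ADP-glucose synthesis (-0.44). The median was 0.15, with 1 probe 1.5-fold higher and 0 lower, and it was 0.04 without block 6 and also with each gene's probes averaged.

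In primary metabolism, phi1 encodes the glucose phosphate isomerase of glycolysis. Its probes read -0.85, -0.79 and -0.81 (mean -0.82), -0.77, -0.74 and -0.73 (mean -0.75) and, on the third, a mean of 0.11. The list of mitochondrial and primary metabolism genes had no other member of its 13 probes past 1.5-fold, and a median of 0.04. The proton pyrophosphatase gene vpp1, which acidifies vacuoles and is in no list, read -0.74, -0.72 and -0.80 (mean -0.75). dxs1, at the entry of plastid isoprenoid synthesis, was at -0.61 while dxs2 of the same step was at 0.25. With thiamine genes, which ran between -0.38 and 0.24, the lipid and other metabolism list had a median of 0.08 over 12 probes, with 0 probes 1.5-fold higher and 1 lower.

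Nitrogen and sulfur assimilation genes stayed within 1.5-fold. Nitrite reductase NIR was at 0.54 (block 6) and 0.47 on its probes, and the glutamine synthetase genes gln1 and GLN6, nearest the middle of the list, were at 0.17 and 0.10. Of 10 nitrogen probes 8 were positive and 0 passed 1.5-fold (median 0.13). Among 9 sulfur probes 5 were positive and 4 negative, with sulfite reductase sir at 0.48, cys2 lowest at -0.21, IDI2 in the middle at 0.11 and 0 past 1.5-fold. Translation genes had EIF5 at 0.13 in the middle of 15 probes, 11 of them positive and 0 past 1.5-fold, and their median of 0.13 was 0.0033 with plate medians set to 0.

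Chromatin genes, with 19 of the 321 named probes, held 3 of the 20 lower ones, where 6% of all probes were 1.5-fold lower. The histone deacetylase hda110 read -0.83, -0.69 and -0.66 (mean -0.72), sgb102 was at -0.69 and the bromodomain gene brd103 at -0.61. On the other side nfc102 had a probe at 0.46, and its second was at -0.20. Of 19 probes 3 were 1.5-fold lower and 0 higher and 13 were negative, and the median of -0.13 became 0.01 with the deposited values uncentred. All 3 were then short of 1.5-fold, hda110 at -0.58, sgb102 at -0.54 and brd103 at -0.46, as was hda110 with block medians set to 0 (-0.58) and brd103 with plate medians (-0.54). Of the 5 cytoskeleton probes 4 were negative and 0 past 1.5-fold, with the tubulin tua4 at -0.43, the actin depolymerizing factor adf2 at -0.57 and prf5 (profilin) at -0.45 and 0.19.

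The remaining regulatory lists gave few large values. Of 16 probes for light signalling and transcription factors 1 passed 1.5-fold, GT1 at -0.86, -0.73 and -0.61 (mean -0.73). The blue light receptor phot1 was at -0.13, GRF10 at 0.54 and the myb gene myb31 at 0.02. That list's median of 0.0019 changed sign with block medians (-0.08), the median of spots (-0.01) and without block 6 (-0.00058). Small GTPases had 4 of 5 probes below 0, with rop6 in the middle at -0.24 and rop1 (block 6) at 0.46. The cell cycle list held 4 probes with a value, among them PCNA at 0.29 and cdc2 at 0.56 (block 6) and 0.18.

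**Figure D4:**
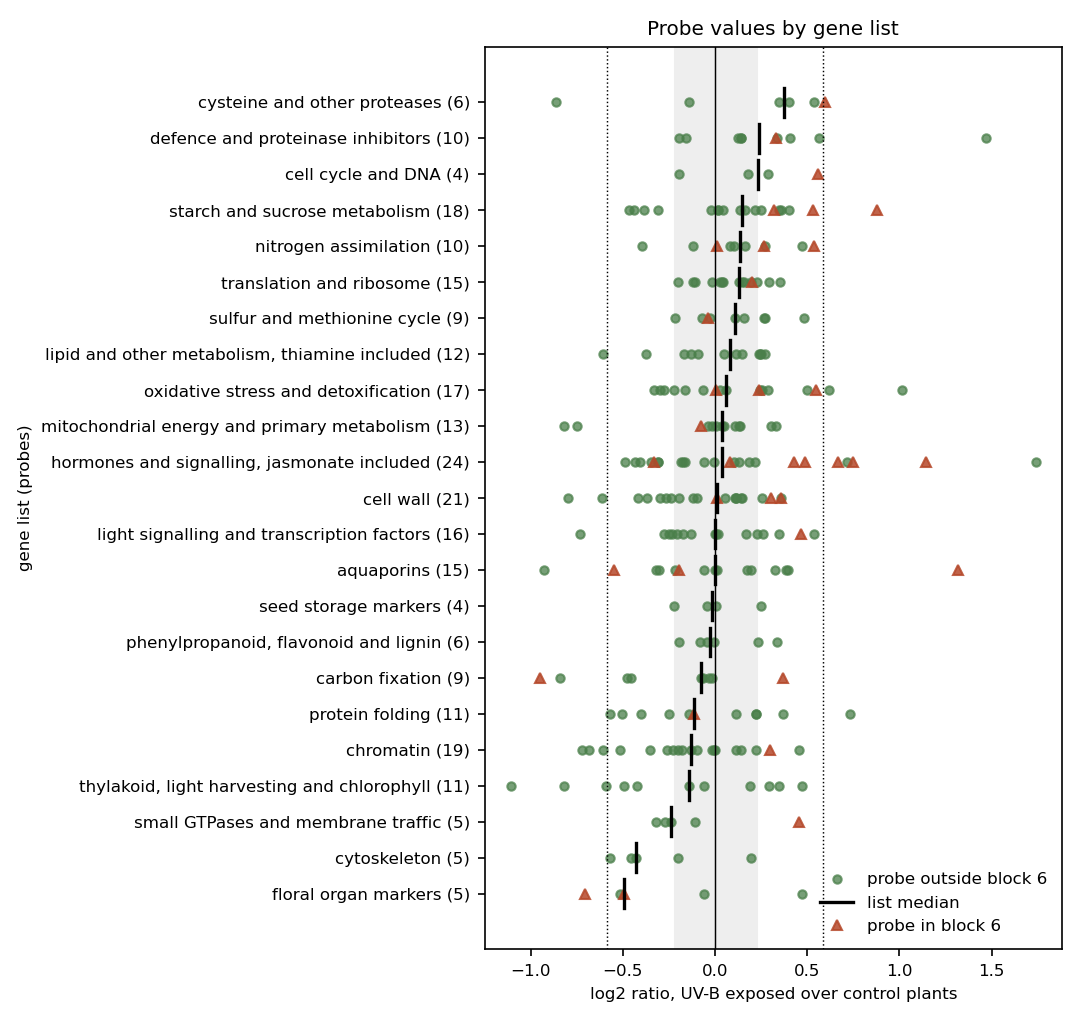
Values of the named probes in 23 gene lists, ordered by list median (black bars), with green dots for probes outside print block 6 and red triangles for those in it. The grey band holds the middle 50% of all probes and dotted lines mark 1.5-fold. Most lists straddle 0, the highest values in the hormone, defence and aquaporin lists are single probes, and several upper tails end in block 6.

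Markers of other organs were read as a check on the sampled tissue, as far as ratios allow, since the array gives no levels. The MADS-box genes and other floral organ markers had 5 of 7 probes with a value. They were m28 (block 6) at -0.79, -0.63 and -0.70 (mean -0.71), zap1 at -0.52, zmm16 (block 6) at -0.50, si1 at -0.06 and ZAG1 at 0.47, a median of -0.50 that was -0.06 over the 3 probes outside block 6. With the deposited values m28 was at -0.56, short of 1.5-fold. Seed storage probes had a median of -0.02, with glb2 and glb1 in the middle at 0.0079 and -0.04. leg1 was at 0.25 and a second glb2 probe at -0.22. Of the leaf's own photosynthetic genes, rbcS, rca1 and lhcb5 were lower, as described. psbs1 (-0.82) was lower too, and PPDK, ppt1, L-FNRI and pgr5 lay below 0 and short of 1.5-fold. Some others lay near 0 or above it, among them me2 (-0.02), me4 (-0.03) and the Cab-m7 probes (0.29 and 0.19). Whether the floral probes and the photosynthetic ones share a source was not tested.

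The remaining named probes past 1.5-fold belong to no list. MRP2 (block 6) averaged 1.05 with spots at 1.54, 0.81 and 0.80, so the median of its spots was 0.81. rpot1, a phage-type RNA polymerase of organelles, was at 0.61, and cda1 read -0.81, -0.95 and -0.97 (mean -0.91). sfr2 was at -0.63. rpot1, sfr2 and, among list members, those given above with values under 1.5-fold that are not the middle of a list without larger values were picked after their values were seen.

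A gene read by several probes gives the closest thing to a repeat within the array. For 43 genes 97 probes had a value, and the probes of a gene had the same sign in 19 genes and opposite signs in 24. The highest and lowest probe of a gene were a median of 0.38 apart, many times the spot SD. The span was 1.16 for pgl1, 1.10 for PIP1-1, 1.07 for PP1, 0.98 for PDIL1-2 and 0.93 for phi1. At the close end, TIP1-1 had its probes 0.01 apart and NIR 0.07. Values of named genes that rest on 1 probe, such as chn1, lhcb5, psbs1, rca1 and opr6, have no such check.

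The extremes of the array were probes with no gene annotation here. The highest was position 619 of block 2, with spots at 2.09, 2.16 and 2.15 and a mean of 2.13 (4.39-fold higher). Next came positions 276 and 46 of block 6 at 2.09 and 1.95, position 231 of block 4 at 1.82, and position 151 of block 1 at 1.79, whose spots ran between 1.46 and 2.13. The lowest was position 533 of block 5, with spots at -1.91, -2.04 and -1.93 and a mean of -1.96 (3.89-fold lower). Position 38 of block 2 (-1.92), position 11 of block 1 (-1.87), position 220 of block 2 (-1.66) and position 695 of block 1 (-1.64) followed. The spot SD of these 5 lower probes was at most 0.075. The annotation covered 369 of the 5120 probes, so most of the large values have no gene name here.

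Adult leaf exposed to UV-B gives the nearest comparison. Adult leaf array 1 covers 8 h of UV-B against control, and its median was likewise set to 0. As many of its spots thus lay above 0 as below, as on the other arrays set beside the covered leaf. The share among only the probes compared was not counted. On adult leaf array 1 the probes 2-fold higher in the covered leaf lay above 0 in 28 of the 33 with a value, at a median of 0.13. Of these 33 probes, 25 sat in block 6 (median 0.17) and 8 outside it (median 0.11). Those 2-fold lower lay below 0 in 34 of 46, at a median of -0.14. Values there were far smaller, as 5 probes of that array were 2-fold higher and 0 lower. Across the 4178 probes that both arrays measured, the correlation was 0.204 (Spearman 0.209), a description over probes that share a print. The second adult leaf array had a value at 32.7% of spots, and its labels name the control in channel 1 and UV-B in channel 2. As deposited, it correlated with the covered leaf at -0.344 (Spearman -0.252) over 1819 probes. All 23 of the lower probes that it measured were above 0, at a median of 1.17 and with 15 past 2-fold. Over all 1819 probes of that array, 73 were at least 2-fold higher. Of the covered leaf's higher probes 13 had a value there, 9 of them below 0, at a median of -0.28. With its sign turned, as channel 1 over channel 2 would require, the correlation is 0.344 (Spearman 0.252). The 23 lower probes then lie below 0 at a median of -1.17, and 9 of the 13 higher ones lie above it. Adult leaf array 1 had 34 of 46 lower probes below 0, but these 23 were not read apart there. The files do not say whether that array was turned before deposit, so its direction is not settled.

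Single genes went both ways on adult leaf array 1. rbcS was at -0.95 in the covered leaf and -0.52 in adult leaf under UV-B, while psbs1 was at -0.82 and 0.17 and lhcb5 at -1.11 and -0.17. MRP2 was at 1.05 and 0.45, and the PP1 probes were at 1.74 and 0.67 in the covered leaf and at 0.06 and 0.33 in adult leaf. opr6 was at 1.15 in the covered leaf and -0.19 in adult leaf, and pip1-2 at 1.32 and -0.07. chn1, Sod4A and rca1 had no value on adult leaf array 1. Among the named probes 1.5-fold higher in the covered leaf, 7 of 11 were positive there (range -0.26 to 0.45), and among the lower ones 11 of 17 were negative (range -0.52 to 0.26). Both are small counts beside an even split over the spots of that array.

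The study's other shielded organs, root and immature ear, have 1 distinct profile each. Over 4566 probes the covered leaf and root correlated at -0.232 (Spearman -0.239), and over 2648 probes the covered leaf and ear at -0.115 (Spearman -0.161). In root, 28 of 44 probes 2-fold higher in the covered leaf were above 0, and so were 26 of 40 of those 2-fold lower. The pip1-2 probe was at 1.32 in the covered leaf and -1.23 in root. Of the named probes at least 1.5-fold lower in the covered leaf, 17 had a value in root, where 10 were positive and 7 negative, near an even split. Among those positive in root were m28 at -0.71 in the covered leaf and 0.82 in root, GT1 at -0.73 and 0.60, and vpp1 at -0.75 and 0.57. chn1 was at 1.47 in the covered leaf and 0.02 in root. rbcS was negative throughout, at -0.95 in the covered leaf, -0.54 in root and -0.67 in ear. No difference between these organs was tested.

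The arrays of CA bag against PE bag may hold the same PE-covered leaf RNA of exposed plants. It would be below the line of their ratio and above it on the covered-leaf array, so sharing alone would tilt the ratios to opposite signs. The files state no direction for these arrays either. Their values are set beside these with no test, and the part of shared RNA was not tested. The covered leaf correlated with CA over PE at 0.324 over 4602 probes of array 1 and 0.142 over 3076 of array 2. Named probes 1.5-fold lower in the covered leaf were negative in 14 of 15 and 10 of 17. The 1.5-fold higher ones were positive in 8 of 13 and 3 of 6. Beside an even split over the spots of each array, 10 of 17, 8 of 13 and 3 of 6 show little. The block 2 probe of PDIL1-2 was at 0.73 in the covered leaf and at 0.88 and 1.70 for CA over PE. Its block 1 probe was at 0.11 in the covered leaf and at 0.91 and 0.90 for CA over PE, and its block 7 probe was at -0.25 in the covered leaf and at 0.05 and 0.10 for CA over PE. rca1 was at -0.84 in the covered leaf and at -0.89 and -0.49 for CA over PE, Sod4A at 1.01 in both on the 1 CA array that measured it, GST39 at 0.62 and 1.27, and opr6 at 1.15 and -0.95. chn1 and lhcb5 had no value on either CA array.

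**Figure D5:**
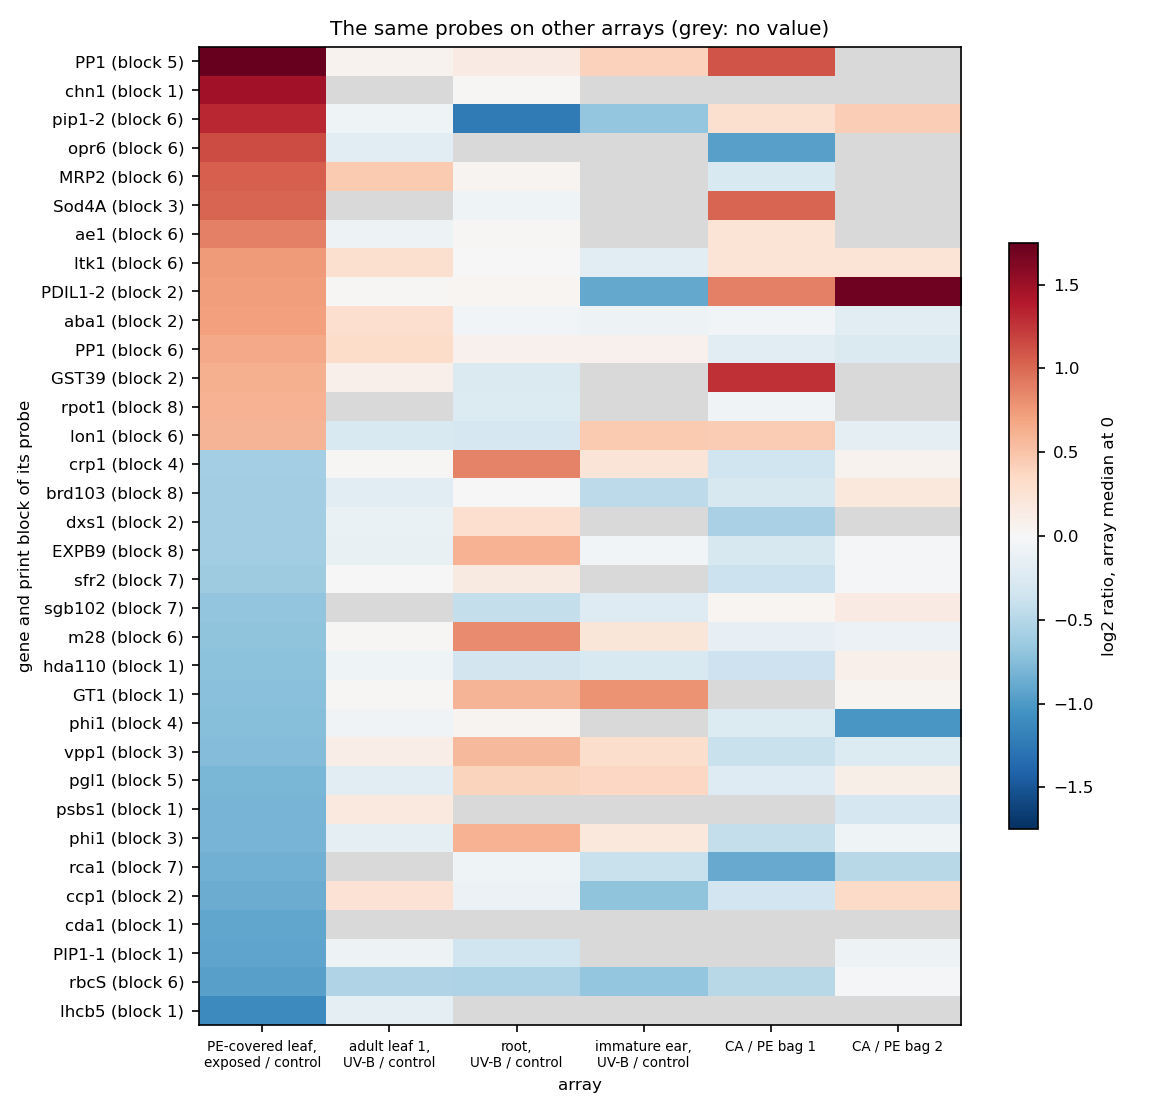
Log2 ratios of the 34 named probes past 1.5-fold on the PE-covered leaf array (left column) and, beside it, on adult leaf array 1, root, immature ear and both CA over PE bag arrays, with grey where an array has no value. The strong red and blue of the left column pale on adult leaf array 1, and root has several of the lower probes in red.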

How the data were processed

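Total RNA was hybridised to spotted 2-colour arrays. Deposited values were log2 ratios. How the authors made them (background, normalization, filters) is not given in sources used here. Base 2 was read from repeated values, of which 4 of 20 on this array and 49 of 129 on seedling leaf array 1 matched log2 of ratios of whole numbers up to 30, against 1 and 2 for the natural log. No intensities were used, so dim spots could not be filtered. The array median (0.15 as deposited) was set to 0, and 3 consecutive spots within a block of 2116 were averaged, with at least 2 needed (pandas 2.3.3, numpy 2.4.6). Averaging was tested on simulated data. Symbols came from the platform annotation, updated through the gene table of Zm-B73-REFERENCE-NAM-5.0. Of 401 annotated probes, 2 carry several genes and were left unnamed, and 44 genes have a LOC number only. Named genes were the 10 highest and 10 lowest with all spots, all probes of these, list members past 1.5-fold, the middle member of other lists and 5 unannotated probes at each end. Members and lists were chosen with earlier results of these data known. Columns for root repeat 1 profile, as do those of immature ear arrays 2 and 3, and each was used once, while that of immature ear array 1 repeats the tassel profile and was left out. The covered-leaf column repeats no other. Alternatives were uncentred values, block and plate medians (12 positions per plate), the median of spots, other spot minima, a spot SD limit of 0.3, averaging the probes of a gene, other folds and, chosen after seeing the data, leaving out block 6. The number of arrays limits the precision.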

Additional observations from a re-analysis of the deposited data

How the results depend on the processing

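Of the counts of 53 higher and 50 lower probes, the largest shifts came with the threshold, which gave 274 and 307 at 1.5-fold and 9 and 6 at 3-fold. With the deposited values uncentred they were 94 and 25, since all values move up by 0.15. Leaving out print block 6, an alternative chosen after seeing the data, gave 21 higher and 49 lower probes. Under block medians, plate medians, the median of spots, other spot minima, the spot SD limit and averaging by gene, the higher count lay between 36 and 55 and the lower between 46 and 52. Of 43 named values, 40 moved by more than their spot SD with deposited values, 28 with block medians, 30 with plate medians (1 changed sign) and 20 with averaging by gene (7 changed sign). Averaging took PIP1-1 (-0.38), PDIL1-2 (0.20), phi1 (-0.49), pgl1 (-0.07), ae1 (0.56) and EXPB9 (-0.25) under 1.5-fold. Deposited values took 7 probes under it, hda110 (-0.58), m28 (-0.56), sgb102 (-0.54), EXPB9 (-0.47), dxs1 (-0.46), brd103 (-0.46) and crp1 (-0.45). Plate medians took 8, dxs1 (-0.57), brd103 (-0.54), lon1 (0.52), aba1 (0.51), crp1 (-0.51), EXPB9 (-0.48), GST39 (0.47) and the block 6 probe of PP1 (0.46). Block medians took 4, hda110 (-0.58), ltk1 (0.55), that PP1 probe (0.47) and lon1 (0.40), and the median of spots took dxs1 (-0.58). chn1 lay between 1.26 and 1.61, lhcb5 between -1.11 and -0.96, psbs1 between -0.82 and -0.67 and rca1 between -0.88 and -0.69 over the settings run. No paired analysis was possible because the result comes from 1 array and no test.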
